A study of Mus musculus with 7 samples.

Results

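The 10 genes described here encode peptides and a growth factor that have been used to mark preoptic neurons involved in torpor and thermoregulation: *Penk*, *Pdyn*, *Gal*, *Cck*, *Sst*, *Tac1*, *Nts*, *Adcyap1*, *Bdnf* and *Qrfp*. They were chosen by name for what the genes encode, with earlier results of these data known. All 10 were found among the 24062 gene symbols counted. RNA was collected by Patch-seq, in which the contents of a neuron are drawn into the pipette after electrophysiological recording. The neurons came from the medial preoptic area (MPA) of adult female ERα-ZsGreen transgenic mice on a C57BL/6J background, in which the green fluorescent protein ZsGreen reports expression of estrogen receptor alpha (ERα, gene *Esr1*). Slices were warmed by 5 °C during the recording, and all samples of both groups share this warming and the reporter. The paper describes the mice of both groups as female, which the counts of sex-linked genes given below go against. A neuron was called temperature-responsive (TR) when its firing rate rose enough with warming, and non-responsive (NR) otherwise. Each sample pooled 2 neurons of the same response. There were 4 temperature-responsive samples (TR1 to TR4) and 3 non-responsive samples (NR1 to NR3). The labels do not say which mouse each sample came from. The paper's caption for images of the reporter cells names 4 mice, fewer than the samples. If the sequenced neurons are among those cells, some samples share a mouse. The tests treat the samples as independent, so p-values measure the spread between these samples, which may be partly technical.

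The preoptic area of the hypothalamus receives signals on skin and brain temperature and sets heat production and heat loss through its projections. Its neurons are largely identified by the neuropeptides they make, which are cut from precursor proteins, stored in dense-core vesicles and released to act on G protein-coupled receptors. Neurons expressing *Adcyap1*, which encodes the peptide PACAP, and *Bdnf*, which encodes a growth factor acting on the receptor TrkB, have been described as warm-activated in the mouse, and activating *Adcyap1* or *Qrfp* neurons lowers body temperature and metabolism as in torpor. *Gal*, *Tac1* and *Cck* mark preoptic neurons with roles in sleep or body temperature. *Penk* and *Pdyn* encode opioid peptide precursors, and *Nts* encodes neurotensin, a peptide that lowers body temperature when given into the brain.

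RefSeq promoters (GRCm38.p6, 250 bases before to 50 bases after the annotated start) were found for 9 of the 10 genes, as 17 promoters; *Penk* had no entry. The promoters of *Gal* and *Cck* and the first of 2 *Pdyn* promoters are shown, from the other 3 genes that differed between the groups. With them is that of *Sst*, the member with a full cyclic AMP response element. They are written 5′ to 3′ on the strand of the gene, all on the minus strand, and capitals mark a match, on either strand, to TGACGTCA (the cyclic AMP response element), to its 5-base core TGACG, which lies inside it, or to CCAAT.
*Pdyn*, chr2:129699889-129700188: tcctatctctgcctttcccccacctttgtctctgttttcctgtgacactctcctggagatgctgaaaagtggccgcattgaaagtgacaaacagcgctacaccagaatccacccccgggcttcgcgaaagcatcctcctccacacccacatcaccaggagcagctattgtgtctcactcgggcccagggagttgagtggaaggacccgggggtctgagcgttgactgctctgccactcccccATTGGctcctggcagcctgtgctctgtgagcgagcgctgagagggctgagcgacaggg
*Gal*, chr19:3414495-3414794: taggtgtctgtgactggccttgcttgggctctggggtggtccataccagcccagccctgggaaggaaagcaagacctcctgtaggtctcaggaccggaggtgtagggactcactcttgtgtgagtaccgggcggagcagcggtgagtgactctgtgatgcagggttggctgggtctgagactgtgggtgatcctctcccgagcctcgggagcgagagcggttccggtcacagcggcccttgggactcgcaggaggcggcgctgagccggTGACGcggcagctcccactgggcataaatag
*Cck*, chr9:121495645-121495944: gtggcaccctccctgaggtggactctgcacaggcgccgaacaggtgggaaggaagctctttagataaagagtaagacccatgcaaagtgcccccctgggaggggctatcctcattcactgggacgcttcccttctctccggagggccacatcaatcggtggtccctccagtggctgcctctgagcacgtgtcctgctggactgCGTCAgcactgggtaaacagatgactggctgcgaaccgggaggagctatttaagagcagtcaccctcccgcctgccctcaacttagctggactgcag
*Sst*, chr16:23890795-23891094: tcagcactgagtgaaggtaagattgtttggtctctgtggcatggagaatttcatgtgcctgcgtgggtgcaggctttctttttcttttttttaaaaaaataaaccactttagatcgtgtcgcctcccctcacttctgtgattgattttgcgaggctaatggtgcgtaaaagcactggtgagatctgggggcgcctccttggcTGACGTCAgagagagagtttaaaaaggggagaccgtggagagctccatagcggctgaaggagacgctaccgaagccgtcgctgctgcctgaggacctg
TGACGTCA was found in the promoter of *Sst*, where it began 48 bases before the start, and in no other member's promoter; 1.79% of 32851 mouse promoters of the same length held it. The core TGACG was found in 8 of the 17 promoters, from 7 of the 9 genes (*Adcyap1*, *Bdnf*, *Cck*, *Gal*, *Nts*, *Sst* and *Tac1*), against 20.8% of all promoters. The 2 *Adcyap1* windows overlap and share the same site, so that site is counted in both of them. CCAAT was found in 4 of the 17, from *Adcyap1*, *Pdyn* and *Tac1*, against 37.4% of all. *Cck*, higher in temperature-responsive samples, and *Gal*, lower, both held the core, and the *Pdyn* promoters held CCAAT without it. A match of letters is a description of these windows and not a binding site.

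The temperature-responsive samples held between 1914497 and 2814360 counts each and the non-responsive samples between 3309361 and 5125280. Depth here means these totals, left after removal of duplicates, since the paper gives reads sequenced only as an average over samples. Depth and group therefore cannot be told apart. Genes detected with any count went the other way, between 19852 and 21177 per temperature-responsive sample and between 17818 and 19820 per non-responsive sample. Levels are given as CPM, in which each library is scaled by its total and a normalization factor (TMM). Before that factor, 3 counts were worth from 0.585 to 1.57 CPM, and this floor covers counting error only. *Esr1*, the gene that the reporter marks, had between 10 and 27 counts in every sample. Its difference between the groups did not pass the test (log2 fold change 0.55, 95% interval -0.24 to 1.34, edgeR adjusted p = 0.286). Although the mice are described as female, the Y-linked *Ddx3y* had between 684 and 1150 counts in each of the 7 samples. *Xist*, which is made from the inactive X chromosome of females, had between 2 and 14. These counts go against the description as female, and the reason was not tested. Genes of other cells were detected throughout: 5 astrocyte markers summed to between 1090 and 1270.1 CPM in temperature-responsive and between 882 and 1075 CPM in non-responsive samples. The sum of 5 endothelial markers (*Cldn5*, *Pecam1*, *Flt1*, *Tek* and *Slco1a4*) lay between 80.3 and 231 CPM against between 15.1 and 58.8 CPM, again without overlap. The sum of 5 oligodendrocyte markers lay between 2796 and 3801 against between 2372 and 3000.2 CPM and that of 5 microglia markers between 273 and 308 against between 307 and 326 CPM. The 6 pan-neuronal markers summed to between 2822 and 3242 against between 2582 and 2917 CPM. None of the markers of other cell types was at 0 in all samples, and their part in the results below was not tested. In pools of neurons, fewer cells expressing a gene and less RNA per cell cannot be told apart.

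Of the 9 peptide genes with enough counts to test, *Penk*, *Pdyn* and *Gal* were lower and *Cck* was higher in temperature-responsive than in non-responsive samples. The fold differences were modest, at 1.6-fold for *Penk*, 1.70-fold for *Pdyn* and 1.46-fold for *Gal* (non-responsive over temperature-responsive) and 1.26-fold for *Cck* (temperature-responsive over non-responsive). *Sst*, *Tac1*, *Nts*, *Adcyap1* and *Bdnf* did not pass the test, and *Qrfp* was too low to test. Counts were compared with edgeR's quasi-likelihood test over 14407 genes, with Benjamini-Hochberg adjustment over all of them and a threshold of 0.05. At this threshold 30.0% of all genes tested passed, 15.1% as higher and 14.9% as lower in the temperature-responsive group, beside 4 of the 9 peptide genes. The median log2 fold change of the 9 was -0.11, against 0.01 over all genes tested. The count of 4 became 1 (*Penk*) without NR3 and 2 (*Penk* and *Pdyn*) without NR2.

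**Figure D1:**
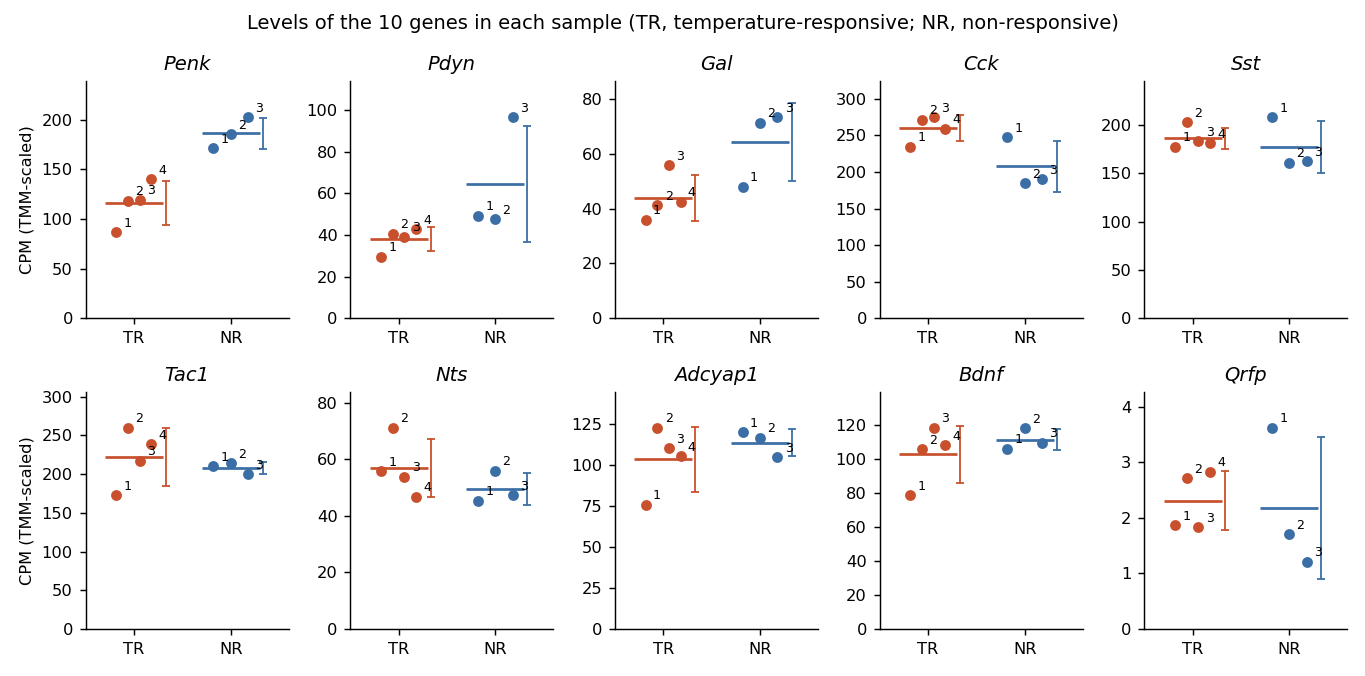
Level of each of the 10 genes in CPM (y axis, linear from 0) in the 4 temperature-responsive (TR) and 3 non-responsive (NR) samples; numbers are replicates, horizontal lines are means and bars are ± 1 SD. All 4 temperature-responsive points lie below all 3 non-responsive points for *Penk* and *Pdyn*, and the groups overlap for the other 8 genes.

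*Penk* (chr4:4133531-4138819, minus strand, mm10), the precursor of the enkephalins, which act mainly on delta and mu opioid receptors, was at 86.5, 118, 119 and 139.8 CPM in TR1 to TR4. In NR1, NR2 and NR3 it was at 171, 185 and 202 CPM. The highest temperature-responsive sample was thus below the lowest non-responsive sample. The means were 116 ± 22 CPM (SD, n = 4) and 186 ± 15.6 CPM (SD, n = 3), and these levels rested on between 185 and 395 counts and between 568 and 1004 counts. The log2 fold change was -0.68 (SE 0.12, 95% interval -0.92 to -0.43, edgeR adjusted p = 0.000364). An exact permutation test of the CPM over the 35 ways to assign the samples, two-sided, gave p = 0.0286, the smallest that 4 samples against 3 allow. *Penk* passed the threshold with each sample left out in turn, at log2 fold changes between -0.78 and -0.57. Exons of *A830012C17Rik* cover 14.3% of its exonic bases, and how the counting assigned reads there is not given in the sources used here.

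*Pdyn* (chr2:129686565-129699844, minus strand), the precursor of the dynorphins, which act mainly on the kappa opioid receptor, was at 29.5, 40.7, 39.1 and 42.8 CPM in TR1 to TR4. It was at 49.2 and 47.6 CPM in NR1 and NR2 and at 96.6 CPM in NR3. The groups did not overlap, but NR1 and NR2 lay close above the temperature-responsive samples and NR3 well above both. The means were 38.0 ± 5.90 CPM (SD, n = 4) and 64.4 ± 27.8 CPM (SD, n = 3), from between 63 and 121 counts and between 163 and 479 counts. The log2 fold change was -0.76 (SE 0.22, 95% interval -1.23 to -0.30, edgeR adjusted p = 0.0159), and the exact permutation test gave p = 0.0286. Without NR3 the log2 fold change was -0.34 and the adjusted p was 0.151, and without TR1 they were -0.67 and 0.0596. *Penk* and *Pdyn*, 2 of the 9 genes, were those without overlap between the groups, both lower in temperature-responsive samples. Over all genes tested the groups did not overlap for 35.4%, and for 18.2% with the temperature-responsive samples lower.

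*Gal* (chr19:3409915-3414544, minus strand) encodes galanin, an inhibitory peptide of many preoptic projection neurons. It was at 36.0, 41.2, 55.9 and 42.5 CPM in TR1 to TR4 and at 48.0, 71.4 and 73.4 CPM in NR1 to NR3. NR1 lay below TR3, so the groups overlapped. The means were 43.9 ± 8.49 CPM (SD, n = 4) and 64.3 ± 14.1 CPM (SD, n = 3), from between 76 and 153 counts and between 159 and 377 counts. Its log2 fold change was -0.55 (SE 0.16, 95% interval -0.88 to -0.22, edgeR adjusted p = 0.0128), whereas the exact permutation test over samples gave p = 0.0857. Without NR2 or without NR3 the call was lost, at -0.47 (adjusted p = 0.0762) and -0.45 (adjusted p = 0.0763). It was also lost when counts were thinned to the smallest total (-0.47, adjusted p = 0.0524).

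*Cck* (chr9:121489824-121495694, minus strand), the precursor of cholecystokinin, was the member that was higher in temperature-responsive samples. It was at 235, 272, 275 and 259 CPM in TR1 to TR4 and at 248, 185 and 190.5 CPM in NR1 to NR3. NR1 lay within the range of the temperature-responsive samples, whereas NR2 and NR3 lay below all of them. The means were 260.2 ± 18.2 CPM (SD, n = 4) and 208 ± 34.8 CPM (SD, n = 3), from between 501 and 752 counts and between 821 and 975 counts. Between the groups the log2 fold change was 0.33 (SE 0.11, 95% interval 0.11 to 0.55, edgeR adjusted p = 0.0210), and the exact permutation test gave p = 0.0857. Leaving out NR2, NR3, TR2 or TR3 ended the call, with log2 fold changes of 0.25, 0.27, 0.32 and 0.31 and adjusted p between 0.0564 and 0.144. It also ended when all genes with at least 1 count were tested (0.24, adjusted p = 0.0745).

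**Figure D2:**
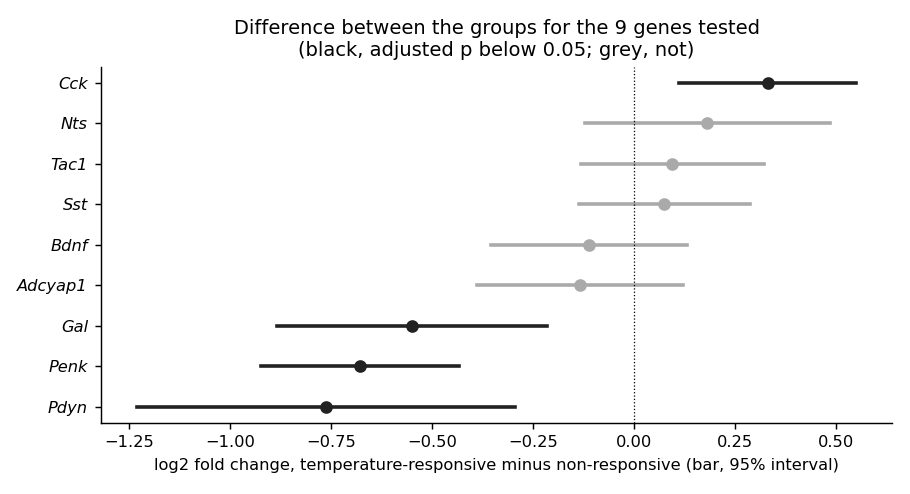
Log2 fold change (x axis, temperature-responsive minus non-responsive) of the 9 genes tested, with bars for the 95% interval; black marks an edgeR adjusted p below 0.05. The intervals of *Pdyn*, *Penk* and *Gal* lie below 0 and that of *Cck* above it, from 0.11 to 0.55, and the other 5 intervals include 0.

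*Sst* (chr16:23889573-23890958, minus strand) encodes somatostatin, an inhibitory peptide. It was at 178, 203, 183 and 181 CPM in TR1 to TR4 and at 208, 161 and 163 CPM in NR1 to NR3. As for *Cck*, NR1 was the highest of its group and stood apart from NR2 and NR3. *Sst* had a log2 fold change of 0.07 (95% interval -0.14 to 0.29, edgeR adjusted p = 0.616).

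*Tac1* (chr6:7554879-7565834, plus strand), which encodes substance P and neurokinin A, was at 173, 259.8, 217 and 239 CPM in TR1 to TR4. In NR1 to NR3 it was at 210.3, 214 and 199.6 CPM, inside the range of the temperature-responsive samples. *Tac1* had a log2 fold change of 0.09 (95% interval -0.13 to 0.32, edgeR adjusted p = 0.545). *Nts* (chr10:102481756-102490486, minus strand) was at 55.7, 71.0, 53.7 and 46.7 CPM in TR1 to TR4 and at 45.3, 55.9 and 47.2 CPM in NR1 to NR3. TR2 was its highest sample, and the other samples of both groups were mixed. *Nts* had a log2 fold change of 0.18 (95% interval -0.12 to 0.48, edgeR adjusted p = 0.373). With an offset for GC content *Tac1* and *Nts* both turned to -0.12, and with genes detected per sample as a covariate *Sst* turned to -0.18 and *Tac1* to -0.20.

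*Adcyap1* (chr17:93199017-93206537, plus strand) was at 75.8, 123, 110.1 and 105 CPM in TR1 to TR4 and at 119.8, 117 and 105 CPM in NR1 to NR3. TR1 lay below the other 6 samples, which overlapped. The log2 fold change was -0.13 (95% interval -0.39 to 0.12, edgeR adjusted p = 0.435). *Bdnf* (chr2:109674700-109727007, plus strand) was at 78.6, 106, 118 and 108 CPM in TR1 to TR4 and at 106, 118 and 109 CPM in NR1 to NR3, again with TR1 lowest. Its log2 fold change was -0.11 (95% interval -0.35 to 0.13, edgeR adjusted p = 0.501), and exons of *Gm45346* cover 14.4% of its exonic bases. These intervals do not reach a difference of 0.5 on the log2 scale in either direction. With an offset for GC content, however, both genes were lower in temperature-responsive samples, *Adcyap1* at -0.35 (adjusted p = 0.0351) and *Bdnf* at -0.37 (adjusted p = 0.0255). With that offset 6 of the 9 genes passed, beside 24.7% of all genes tested, and *Adcyap1* and *Bdnf* have, with *Tac1* and *Nts*, the lowest GC content of the 10 genes, between 39.4% and 42.8% of the longest transcript against between 51.9% and 56.9% for the others.

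*Qrfp* (chr2:31806166-31810580, minus strand), the precursor of the RFamide peptide 26RFa, had between 4 and 8 counts in temperature-responsive and between 6 and 12 counts in non-responsive samples. This corresponds to 1.87, 2.71, 1.83 and 2.83 CPM in TR1 to TR4 and to 3.62, 1.71 and 1.21 CPM in NR1 to NR3. NR1 was the highest and NR3 the lowest of the 7 samples. The gene did not reach 10 counts in 3 samples and was not tested with edgeR. The difference of the means, 0.132 CPM, had an exact permutation p of 0.914, and a difference was not detectable at this depth.

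**Figure D3:**
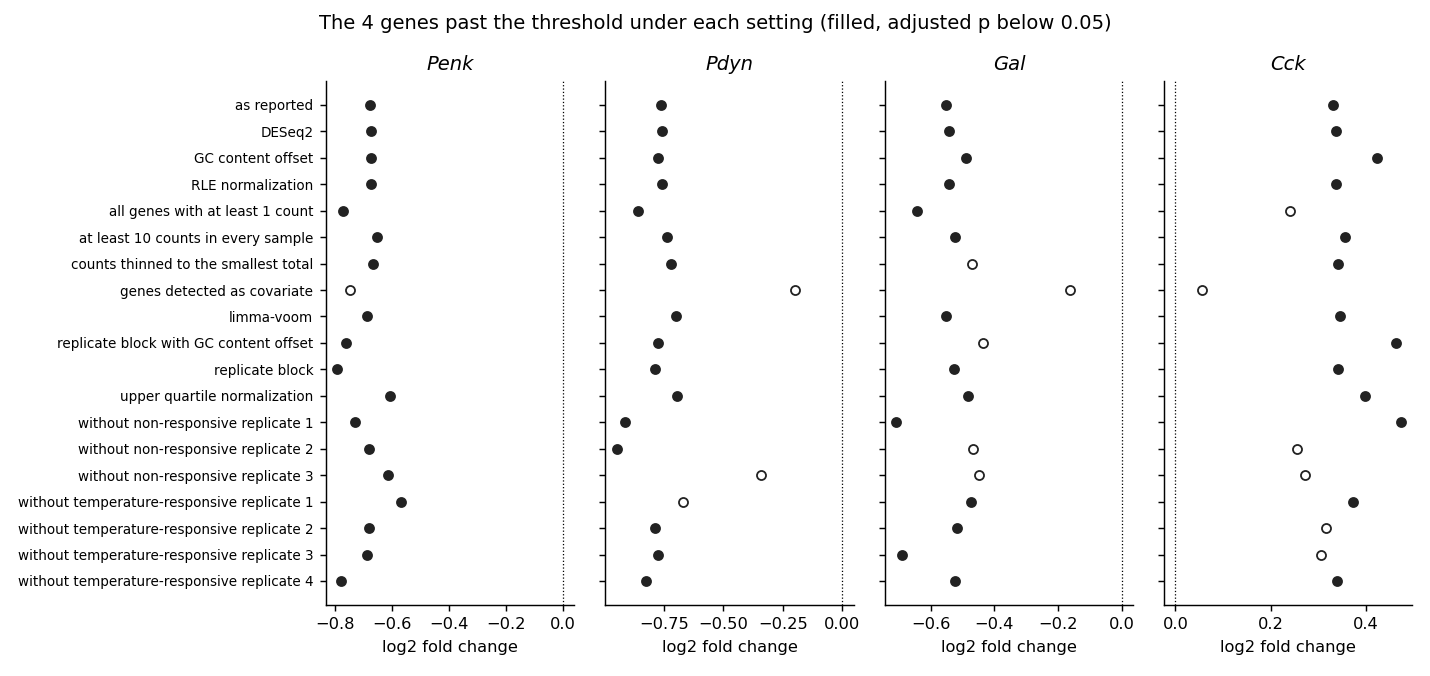
Log2 fold change (x axes, temperature-responsive minus non-responsive; the scales differ between panels) of the 4 genes that passed the threshold, under each setting of the processing (y axis); filled points have an adjusted p below 0.05. *Penk* stays between -0.79 and -0.57 and loses the call once genes detected per sample enter as a covariate, whereas *Pdyn* moves to -0.34 without NR3.

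The call of *Penk*, *Pdyn*, *Gal* and *Cck* was not kept when genes detected per sample entered the fit as a covariate. This number did not overlap between the groups, and with it edgeR called 0 of the 9 genes and 0.00694% of all genes tested, or 1 gene. At an unadjusted p below 0.05 it left 2061 genes, *Penk* and *Adcyap1* among them. *Penk* had a log2 fold change of -0.75 in this fit, close to that without the covariate, and *Pdyn*, *Gal* and *Cck* had values of -0.20, -0.16 and 0.06.

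Levels were compared between genes per kb of merged exon. *Sst* was highest in every sample, with a median of 251 CPM per kb over the 7 samples (range 223 to 289), which lies above 99.7% of 13745 tested genes of known length. *Cck* followed at 189.8 CPM per kb (range 142 to 211), and its range did not meet that of *Sst*. *Penk* at 85.6, *Tac1* at 63.0, *Gal* at 60.9 and *Nts* at 43.1 CPM per kb came next, and neighbours in this sequence overlapped in range. *Adcyap1* had a median of 29.1, *Bdnf* of 17.4 and *Pdyn* of 14.8 CPM per kb, the last 2 with overlapping ranges. *Qrfp* was lowest at 0.639 CPM per kb. *Nts* lay above *Adcyap1*, and *Adcyap1* above *Bdnf*, without overlap of their ranges. The per-length level of *Penk* was 71.0 ± 13.5 in temperature-responsive and 114 ± 9.52 CPM per kb in non-responsive samples (SD, n = 4 and 3). Per kb of the longest transcript, *Cck* (310.04) was above *Sst* (251) and *Tac1* (108) above *Penk* (96.5), so these 2 orders rest on the length used.

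**Figure D4:**
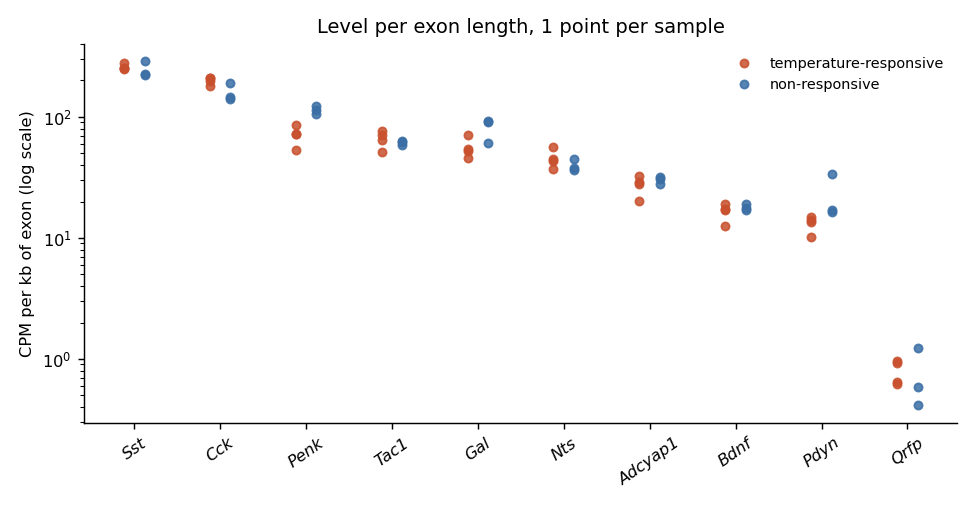
Level per exon length (y axis, CPM per kb of merged exon, log scale) of the 10 genes, 1 point per sample, ordered by the median over 7 samples. *Sst* and *Cck* lie above the other 8 genes in all samples, and all *Qrfp* points lie at or below 1.24 CPM per kb, against at least 10.2 for the other 9 genes.

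Ratios of counts within a library do not depend on scaling between libraries and are given here as a description, chosen after the values were seen. The ratio of *Penk* to *Cck* counts was between 0.369 and 0.539 in temperature-responsive and between 0.692 and 1.06 in non-responsive samples. *Penk* to *Tac1* was between 0.455 and 0.585 against between 0.815 and 1.01, and *Penk* to *Sst* between 0.487 and 0.771 against between 0.823 and 1.24. *Pdyn* to *Cck* was between 0.125 and 0.165 against between 0.199 and 0.507, whereas *Gal* to *Cck* overlapped, with TR3 (0.203) above NR1 (0.194). The ratio of *Penk* to *Pdyn* was between 2.91 and 3.26 in the temperature-responsive samples and between 2.10 and 3.89 in the non-responsive samples, so the 2 opioid precursors were not separated by group relative to each other.

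Whether the genes varied together was examined within the groups, as the correlation of log2 CPM after the mean of each group was removed, over 7 samples and 36 pairs of the 9 genes. Of these correlations 27 were positive and 9 negative, with a median of 0.27 and a range from -0.65 to 0.94. The smallest p that an exact permutation within groups allows here is 0.00694, so that a single pair could not pass after adjustment over 36 pairs, and the adjusted values say little. In this two-sided test 0 pairs passed, with a smallest adjusted p of 0.50, and 3 pairs had an unadjusted p below 0.05. *Adcyap1* and *Tac1* had Pearson's r = 0.94 (exact permutation p = 0.0278) and Spearman's rho = 0.68 (exact permutation p = 0.167), and r fell to 0.44 without TR1 and TR2, on which the relation rests. *Cck* and *Sst* had r = 0.91 (exact permutation p = 0.0417) and rho = 0.93 (exact permutation p = 0.0208), and r was 0.69 without NR1 and NR2. *Penk* and *Pdyn* had r = 0.67 (exact permutation p = 0.0278) and rho = 0.82 (exact permutation p = 0.0417), with r = 0.91 without NR2 and NR3.

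The samples that carry these correlations can be seen in the single values. TR1 was the lowest of the temperature-responsive samples for 8 of the 9 genes, all but *Nts*, and the 10 genes summed to 949.7 CPM there against at least 1168 CPM in TR2, TR3 and TR4. In the non-responsive group no sample took that place: NR1 was highest for *Adcyap1*, *Cck* and *Sst*, NR2 for *Bdnf*, *Tac1* and *Nts*, and NR3 for *Gal*, *Pdyn* and *Penk*.

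The genes whose log2 CPM over the 7 samples was most like each member were found among 11215 genes with a mean of at least 10 CPM. As a description, *Penk* was most like *Bcl11a* (r = 0.998) and *Pcbp3* (r = 0.994), and *Cck* most like *Cyp39a1* (r = 0.997). *Pdyn* was most like *Crocc* and *Lrfn4* (both r = 0.988), and *Gal* most like *L3mbtl3* (r = 0.985) and *Th* (r = 0.984), the rate-limiting enzyme of dopamine synthesis. *Sst* was most like *Basp1* (r = 0.983) and *Orc6* (r = 0.967), *Tac1* like *Sulf1* (r = 0.981) and *Syce2* (r = 0.980), and *Bdnf* like *Enkur* (r = 0.979) and *Cdkn1c* (r = 0.976). *Nts* was most like *Cep76* (r = 0.968) and *Cul5* (r = 0.960), and *Adcyap1* like *Capn3* and *Nhp2* (both r = 0.960). With 7 points per gene and this many genes, values near 1 come from the choice of the best of many, and the points share depth with the groups.

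Of 23 receptor genes for these peptides 19 were tested, 4 were lower in temperature-responsive samples and 15 did not pass, beside 30.0% of all genes tested that passed and 14.9% that were lower. The log2 fold change was positive for 9 of the 19 and negative for 10, with a median of -0.17, against 0.01 over all genes tested. *Adcyap1r1*, the receptor of PACAP, was at 136 ± 7.62 CPM in temperature-responsive (SD, n = 4) and 180 ± 8.47 CPM in non-responsive samples (SD, n = 3), and fell by 0.40 on the log2 scale (edgeR adjusted p = 0.00313) without overlap. *Ntsr2*, a neurotensin receptor also found in astrocytes, was at 99.4 ± 16.2 CPM against 153 ± 18 CPM (SD, n = 4 and 3; log2 fold change -0.61, edgeR adjusted p = 0.000665). Both were called with each sample left out in turn. *Sort1*, a sorting receptor that binds neurotensin, had a log2 fold change of -0.29 (edgeR adjusted p = 0.0196), and the call was lost without NR3 and without TR2, at -0.27 and -0.26. *Sstr3*, a somatostatin receptor of neuronal cilia, had a log2 fold change of -0.58 (edgeR adjusted p = 0.0411), and the call was lost without NR1, NR2, NR3, TR1 or TR2, at values between -0.65 and -0.44. DESeq2 did not call *Sstr3* (adjusted p = 0.0707), nor did edgeR with the GC offset, with thinned counts or with upper quartile scaling (adjusted p = 0.0719, 0.158 and 0.0758). The count of 4 receptors became 2 without NR3 and 2 without TR2.

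Among the receptors of the 4 peptides that differed, none of those with enough counts to test passed the edgeR test. *Oprk1*, the kappa opioid receptor on which dynorphins act, was at 35.1 ± 3.81 CPM in temperature-responsive and 27.4 ± 3.83 CPM in non-responsive samples (SD, n = 4 and 3; log2 fold change 0.36, edgeR adjusted p = 0.108). *Oprd1*, the delta receptor, had between 9 and 17 counts (log2 fold change 0.66, edgeR adjusted p = 0.293), and *Oprm1*, the mu receptor, between 4 and 13 (0.34, edgeR adjusted p = 0.694). Among galanin receptors, *Galr1* was at 6.0 ± 2.01 and 5.66 ± 1.79 CPM (SD, n = 4 and 3; log2 fold change 0.07, edgeR adjusted p = 0.909), and *Galr2* and *Galr3* were too low to test, with at most 9 and 3 counts in any sample. Of the cholecystokinin receptors, *Cckbr* was at 28.7 ± 4.54 against 37.3 ± 1.41 CPM (SD, n = 4 and 3; log2 fold change -0.37, edgeR adjusted p = 0.0899) and *Cckar* had a log2 fold change of 0.61 (edgeR adjusted p = 0.338) from between 5 and 35 counts. Without NR1 the value of *Cckar* was 0.28, and without NR3 it was 1.35 (adjusted p = 0.0677).

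Of 17 genes that cut, modify and release neuropeptides, all tested, 3 rose, 2 fell and 12 did not pass, and the median log2 fold change was 0.04. The 5 that passed are a share close to the 30.0% of all genes tested. *Cpe*, the carboxypeptidase that trims peptide precursors, was at 786 ± 120.5 CPM in temperature-responsive and 555 ± 82.9 CPM in non-responsive samples (SD, n = 4 and 3; log2 fold change 0.50, edgeR adjusted p = 0.00339). *Qpct*, which forms the N-terminal pyroglutamate of peptides such as neurotensin, had a log2 fold change of 0.45 (edgeR adjusted p = 0.0188), and lost the call without NR3 (0.30), without TR2 (0.33) and with the GC offset (0.25, adjusted p = 0.156; 0.29, adjusted p = 0.119, with the replicate block added). *Chga*, a chromogranin of dense-core vesicles, fell by 0.48 on the log2 scale (edgeR adjusted p = 0.00123), from 197 ± 20.5 CPM in non-responsive to 141 ± 11.7 CPM in temperature-responsive samples (SD, n = 3 and 4). *Baiap3*, which acts in dense-core vesicle trafficking, had a log2 fold change of -0.64 (edgeR adjusted p = 0.0276), lost without NR1 (-0.69), NR3 (-0.48) or TR2 (-0.57). The count of 5 became 2 without NR3 and 3 without TR2.

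Among 24 other neuropeptide precursors 21 were tested, 2 rose, 5 fell and 14 did not pass, and the median log2 fold change was -0.48. The 7 that passed are a share near the 30.0% of all genes tested. *Npvf*, among the 5 that fell, met the count filter only through the non-responsive samples. *Hcrt*, the orexin precursor of lateral hypothalamic neurons, was at 5.61, 16.8, 12.1 and 17.0 CPM in TR1 to TR4 and at 24.4, 34.3 and 27.6 CPM in NR1 to NR3 (log2 fold change -1.16, edgeR adjusted p = 0.00152). *Oxt*, the oxytocin precursor, was at 15.5 ± 4.17 against 28.2 ± 0.821 CPM (SD, n = 4 and 3; log2 fold change -0.84, edgeR adjusted p = 0.00375). *Pnoc*, the precursor of nociceptin and like *Penk* and *Pdyn* of the opioid family, was at 21.5 ± 8.95 against 37.0 ± 1.83 CPM (SD, n = 4 and 3; log2 fold change -0.79, edgeR adjusted p = 0.00672). *Pmch*, the precursor of melanin-concentrating hormone, moved the other way, at 127 ± 25.8 against 78.0 ± 14.3 CPM (SD, n = 4 and 3; log2 fold change 0.70, edgeR adjusted p = 0.00141). *Hcrt* and *Pmch* are products of lateral hypothalamic neurons, and their presence in samples of preoptic neurons is given as measured. These 4 genes were called with each sample left out in turn.

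**Figure D5:**
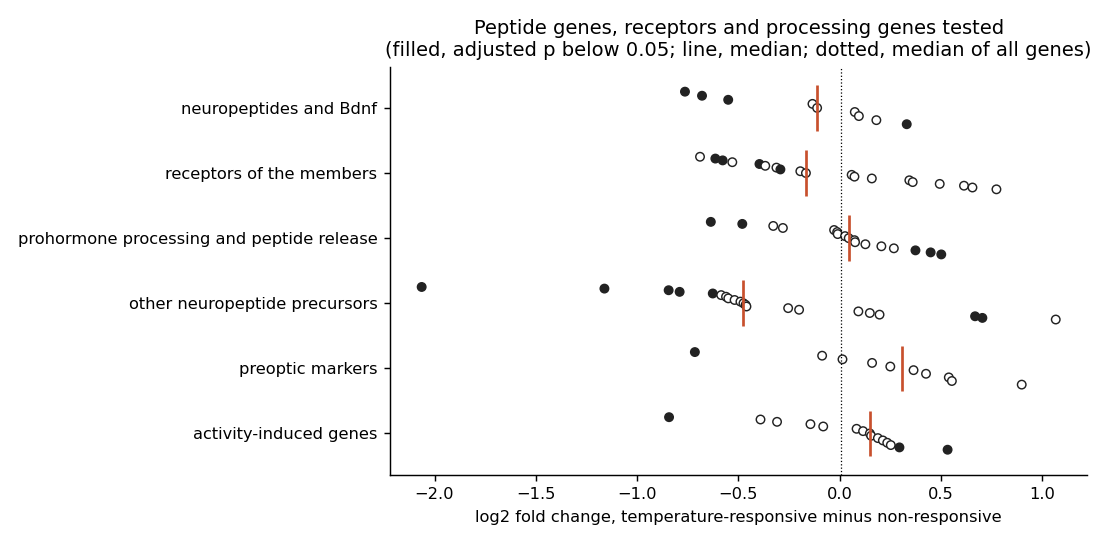
Log2 fold change (x axis, temperature-responsive minus non-responsive) of each gene tested in 6 gene lists (y axis); filled points have an edgeR adjusted p below 0.05, red lines are the medians of the lists and the dotted line is the median of all genes tested, 0.01. The median of other neuropeptide precursors is lowest, at -0.48, and the 4 receptor genes that passed all lie below 0.

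Of 14 markers of preoptic neurons 10 were tested, 1 fell and 9 did not pass, with a median log2 fold change of 0.31. The count of 1 became 0 without NR2, NR3 or TR2, and 2 without TR1 and 2 without TR3. Of 16 genes induced by neuronal activity 15 were tested, 2 rose, 1 fell and 12 did not pass, with a median of 0.15. Beside both counts, 30.0% of all genes tested passed. *Egr4*, an immediate early transcription factor, had a log2 fold change of -0.84 (edgeR adjusted p = 0.00655), and -0.45 (adjusted p = 0.0692) with the GC offset. *Homer1*, a synaptic scaffold gene with an activity-induced short form, had a log2 fold change of 0.29 (edgeR adjusted p = 0.0226). *Homer1* turned to -0.05 with the GC offset, and its call was lost without NR2, NR3, TR2 or TR3, at values between 0.24 and 0.31. The count of 3 activity-induced genes became 1 without NR3, 2 without NR2, 2 without TR2 and 5 without NR1.

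Markers of neurons outside the preoptic area were also set beside these values, since *Penk* and *Pdyn* are abundant in the striatum and *Cck* in the cortex. The sum of 8 striatal neuron markers was between 212 and 254 CPM in temperature-responsive and between 242 and 264 CPM in non-responsive samples, and 2 of the 5 tested (*Ppp1r1b* and *Rgs9*) were lower in the temperature-responsive samples. The sum of 8 markers of cortical and hippocampal neurons was between 395 and 588 against between 555 and 582 CPM. The part of these cells in the levels of *Penk*, *Pdyn* and *Cck* was not tested.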

How the data were processed

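Per the labels and the study's methods, RNA was amplified with SMART-seq V4, libraries were made with Nextera XT and sequenced in a single lane. The authors aligned reads to mm10 with STAR (2.6.0 in the submitters' processing notes), took out duplicates with RmDup, and deposited read counts from htseq-count (HTSeq 0.9.1) per gene symbol, without normalization. As the reads carry no molecular identifiers, this step may also discard separate molecules of abundant genes. The annotation, strandedness and rule for overlapping genes are not given in the sources used here.

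Genes were kept when 3 or more samples had 10 or more counts. The deposited counts of these 14407 genes, of 24062, were compared in edgeR 4.0.16 (R 4.3.3; robust quasi-likelihood F test, TMM, two-sided, no covariate). The standard error is the log2 fold change divided by the root of F. CPM were TMM-scaled, and correlations used log2 CPM with a prior count of 2. DESeq2 1.42.0, limma 3.58.1 and a GC offset fitted with mgcv 1.9.3 were alternatives, with other scalings, filters, thinning, a covariate, a replicate block and the omission of each sample. Gene positions, exon lengths and GC were read from GENCODE M21 (GRCm38), in which 94.5% of symbols were found. The fit was tested on simulated data. Replicates of a group differed beyond sampling noise (chi-square over its degrees of freedom from 2.00 to 5.13).

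The 10 genes and the lists were chosen with earlier results of these data known. From the 5 lists described, the genes named were those past the threshold without overlap between the groups, at most the 4 largest changes per list, with the receptors of the peptides that differed and, for each member, the 2 most similar genes; others are said to be chosen afterwards. Of the genes this rule gives, 2 are not reported here. The markers of striatum were matched with *Drd1* as *Drd1a*.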

Additional observations from a re-analysis of the deposited data

Results flagged for a closer look

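In the temperature-responsive group, the summed level of the 8 cortical and hippocampal neuron markers was 395 CPM in TR1, against up to 588 CPM in the other 3 samples. The gap of TR1 to its nearest neighbour was 0.930 of the range of the group, above the critical value of Dixon's test for 4 samples. This was 1 of 47 sets of values examined in that group, none of the 10 peptide genes passed it, and chance alone passes about 1 in 20. TR1 was also the lowest of its group for 8 of the 9 peptide genes tested.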

How the results depend on the processing

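*Penk*, *Pdyn*, *Gal* and *Cck* kept their direction under all 18 alternatives; they were called in 17, 15, 13 and 12 of them. Depth and group are not separated in this design, and no scaling removes that limit. With genes detected per sample as covariate, 1 gene was called, and 0 in each list (peptide genes, receptors, processing and release, other peptides, preoptic markers, activity-induced genes). The GC offset left 1 activity-induced gene. Testing all genes with at least 1 count gave 8 receptors, and upper quartile scaling 2. Preoptic markers numbered 2 with RLE, upper quartile scaling, limma-voom or 10 counts in every sample, and 0 after thinning.

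*Tac1* turned to -0.12 with the GC offset, -0.20 with the covariate and -0.18 with the replicate block and GC offset. *Nts* turned to -0.12 and -0.039 with the GC offset without and with the block. *Sst* turned to -0.017 over all genes and -0.18 with the covariate. *Homer1* was at -0.050 and -0.053 with the GC offset without and with the block, *Galr1* at -0.022 over all genes and -0.82 with the covariate, and *Oprm1* at -0.35 with the covariate. The causes were not tested.

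With each sample left out in turn, between 2620 (without NR3) and 4583 genes were called, and between 1 (without NR3) and 4 peptide genes, 2 and 5 receptors, 2 and 7 processing genes, 5 and 9 other peptides, 0 and 2 preoptic markers and 1 and 5 activity-induced genes. *Galr1* ranged from -0.18 to 0.28, *Oprm1* from -0.12 to 0.60 over the 4 omissions in which it could be tested (without NR2, TR1, TR2 or TR3), and the *Qrfp* difference from -0.35 to 0.853 CPM.

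Of all calls 50.3% were higher in temperature-responsive samples, but 37.8% with the GC offset and 62.1% with upper quartile scaling. Whether same-numbered samples of the groups share more than a number is not given. The correlations of their deviations were -0.13, -0.06 and 0.03, within the range of other pairs (-0.17 to 0.22), and cannot decide this. With the replicate block 4124 genes and the same 4 peptide genes were called. TR4 has no same-numbered non-responsive sample, so it adds nothing to the group difference in fits with the block. With block and GC offset *Gal* was at -0.44 (edgeR adjusted p = 0.0623).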

Other observations

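Genes outside the naming rule, chosen after their values were seen, also passed the test. Among other neuropeptide precursors, *Vip*, the vasoactive intestinal peptide precursor, was at means of 73.9 CPM in temperature-responsive and 47.1 CPM in non-responsive samples (log2 fold change 0.67, edgeR adjusted p = 0.0201). The call of *Vip* was lost without NR2 (0.69), NR3 (0.49) or TR3 (0.44), and with the GC offset (0.37). It was also lost with thinned counts (0.61, edgeR adjusted p = 0.0577), with the replicate block (0.74, edgeR adjusted p = 0.0750) and with block and GC offset (0.41). *Npvf*, which encodes RFamide peptides, had 2, 2, 8 and 7 counts in TR1 to TR4 and 10, 15 and 92 counts in NR1 to NR3, or 0.936, 1.08, 2.93 and 2.48 CPM against 3.02, 2.84 and 18.5 CPM. NR3 alone was far above the other 6 samples, which overlapped between the groups. The gene reached 10 counts only in the 3 non-responsive samples, so it entered the test through the group where it is high. Without NR1, NR2 or NR3 it was too low to test. Its log2 fold change of -2.06 rests on NR3, and its edgeR adjusted p of 0.0241 is not read as support for a difference. The call was lost without TR1 (-1.86) or TR2 (-1.91) and with limma-voom (-1.56). *Vgf*, a granin-like precursor, was at 66.2 and 103 CPM (-0.63, edgeR adjusted p = 0.00106), lost with block and GC offset (-0.32). *Cadps*, which primes dense-core vesicles, was at 397 and 306 CPM (0.37, edgeR adjusted p = 0.0132), lost without NR2 (0.37), NR3 (0.37) or TR1 (0.25) and with the GC offset (0.26). The activity-induced *Egr3* was at 94.6 and 65.9 CPM (0.53, edgeR adjusted p = 0.00631), lost without NR3 (0.38). The astrocyte genes did not move as a set: *Slc1a3* and *Gja1* were higher in temperature-responsive samples (0.45 and 0.63, edgeR adjusted p = 0.00342 and 0.000452), and *Gfap* was lower (-1.01, edgeR adjusted p = 0.000364).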
